A study of Mus musculus with 6 samples.

Results

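COUP-TFII peaks were examined at 10 genes of retinoic acid supply and reception: Rbp4, Aldh1a1, Aldh1a2, Aldh1a3, Cyp26b1, Rara, Rarb, Rarg, Rxra and Rxrb. A peak was counted for the protein-coding gene whose body was nearest to the peak's centre within 100 kb, with distance 0 inside a gene and ties going to the nearer gene end. This gave 9 peaks among 11175 in the XX list and 8 among 9846 in the XY list, or 17 of 21021 over both. A gene within 100 kb was found for 93.5% of all XX and 95.3% of all XY peaks. The genes share a function in the pathway, and they were picked when earlier results on these peaks were known. Chromatin immunoprecipitation and sequencing (ChIP-seq) of COUP-TFII, the nuclear receptor encoded by Nr2f2, was done on pooled mesonephroi of CD-1 mouse embryos at E14.5. There were 2 XX samples, 2 XY samples and 2 input samples pooled from both sexes, and the labels name no mutation or treatment for any group. The tissue was used whole, so the cell type behind a peak is not known, and peak lists hold no expression values with which to check tissue markers.

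Each sex has 1 deposited list over its 2 replicates. The lists give the position of each 300 bp peak (mm10) with no height, score or p-value, so replicate spread cannot be given for any value. A peak in 1 list only, called XX-only or XY-only here, may be absent from the other sex or may have missed the authors' threshold there. Sequencing depth behind the lists is unknown. Intervals on shares are exact (Clopper-Pearson, 95%) and cover counting error only.

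Retinoic acid is made from vitamin A. Retinol travels in blood on RBP4, is oxidised in cells to retinal, and is then turned into retinoic acid by the retinaldehyde dehydrogenases ALDH1A1, ALDH1A2 and ALDH1A3. Enzymes of the CYP26 family break it down. Retinoic acid receptors (RARs) bind DNA as heterodimers with retinoid X receptors (RXRs), at repeats of a short hexamer close to AGGTCA. COUP-TFs bind repeats of the same hexamer. In the mouse, the mesonephros has been described as a source of retinoic acid for the fetal gonad. There the acid has been proposed to promote entry of germ cells into meiosis, and CYP26B1 removes it in the fetal testis.

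The Rarb promoter carried a peak in both lists over a direct repeat of this kind, and its sequence is shown for that reason. Rarb encodes a receptor whose own promoter is a classical retinoic acid target. Promoter sequences came from RefSeq (GRCm38.p6, the assembly of mm10), and 9 of the 10 genes had at least 1 entry. Only the 250 bases before the start are shown, 5′ to 3′ on the gene's strand. Capitals mark the hexamers GGTTCA and AGTTCA, 5 bases apart. The 250 bases lie at chr14:16575477-16575726 on the minus strand.
Rarb: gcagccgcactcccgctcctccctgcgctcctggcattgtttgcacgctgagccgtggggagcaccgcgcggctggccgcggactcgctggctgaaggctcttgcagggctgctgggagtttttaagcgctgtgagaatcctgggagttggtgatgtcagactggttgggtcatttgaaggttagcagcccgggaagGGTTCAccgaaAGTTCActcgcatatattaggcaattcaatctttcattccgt

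The repeat lay 53 to 37 bases upstream of the annotated start, at chr14:16575513-16575529. The XX peak (chromosome 14, 16575322 to 16575621) ran from 145 bases upstream to 154 bases downstream of that start. The XY peak (16575511 to 16575810) was centred 189 bp farther upstream, from 334 to 35 bases before the start. The 2 peaks had 111 bp in common, and the repeat fell inside these, at the edge of the XY peak nearer the start and away from its centre. This is a wide offset for a shared peak: the median distance between the centres of shared peaks was 33 bp over the 7483 shared peaks, and 3.80% were at least as far apart as those of Rarb.

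Direct repeats with spacing 5 (DR5) built from AGGTCA or from any of its variants (AGTTCA is one, GGGTCA another and GGTTCA the last), on either strand and allowing overlaps, were found in 32 of 32851 promoter windows of 300 bases (0.0974%). Of these 32 windows, 3 overlapped an XX peak and 3 an XY peak. Windows overlapped by a peak made up 14.49% (XX) and 14.40% (XY) of all windows. DR1, the repeat with spacing 1, was in 73 windows, of which 32 overlapped an XX peak and 28 an XY peak. A match is a description of letters and not of a bound site. With AGGTCA as the only hexamer, no window of the 10 genes held a direct, inverted or everted repeat with a spacing of 0 to 8. With the 4 hexamers, added after the data had been seen, Rarb had the 1 such window among the 10 genes.

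**Figure D1:**
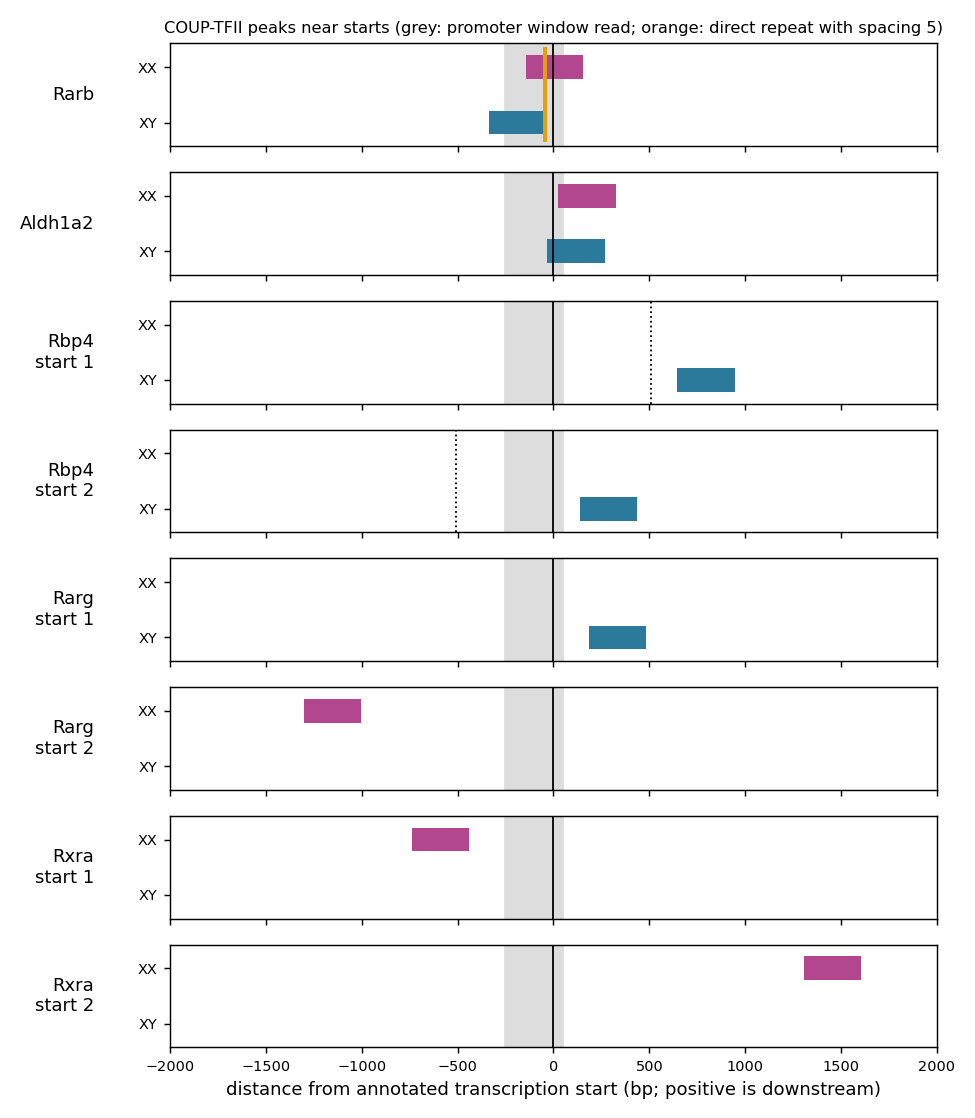
Position of COUP-TFII peaks (bars, XX above XY) relative to annotated transcription starts of retinoic acid genes that had a peak centre within 1.5 kb, in bp with positive values downstream; grey is the promoter window that was read, orange the Rarb repeat, dotted lines another start of the same gene. Rarb and Aldh1a2 have overlapping XX and XY bars at the start, Rbp4 and the upstream start of Rarg have an XY bar alone, and Rxra and the downstream start of Rarg have an XX bar alone.

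Of the 10 genes, 5 had an XX peak (50%, interval 18.7 to 81.3) and 7 had an XY peak (70.0%, 34.8 to 93.3). Over all 21887 protein-coding genes these shares were 36.9% for the XX list and 35.0% for the XY list. A shared peak, defined by at least 1 bp in common, was found at 4 genes: Aldh1a2, Aldh1a3, Rarb and Rxra. The share of all genes with a shared peak was 28.2%. An XX-only peak was found at 4 of the 10 genes, against 13.2% of all genes, and an XY-only peak at 4, against 9.55%. Counting either list, 7 of the 10 genes had a peak, against 42.2% of all genes, and Aldh1a1, Rara and Rxrb had none. With 10 genes the intervals are wide, from 12.2 to 73.8% for an XY-only peak, and none of these counts was tested against all genes.

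A gene with long flanks collects peaks by position alone. The part of the genome nearest to each gene had a median of 136.2 kb for the 10 genes and of 45.0 kb for all genes. Per 100 kb of such stretches, the 10 genes had 0.510 XX and 0.453 XY peaks, and all genes had 0.547 and 0.491. Rarb holds the longest of these stretches, 751.5 kb. Without it the other 9 genes had 0.690 peaks per 100 kb in each list, above the values of all genes, so the place of the 10 genes beside all genes rests on Rarb. Among them the density ran from 0 to 2.94 per 100 kb in the XX list and from 0 to 7.41 in the XY list. Rarg (2.94) was highest in the XX list and Rbp4 (7.41) in the XY list, each with a single peak on a short stretch of 34.0 and 13.5 kb.

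**Figure D2:**
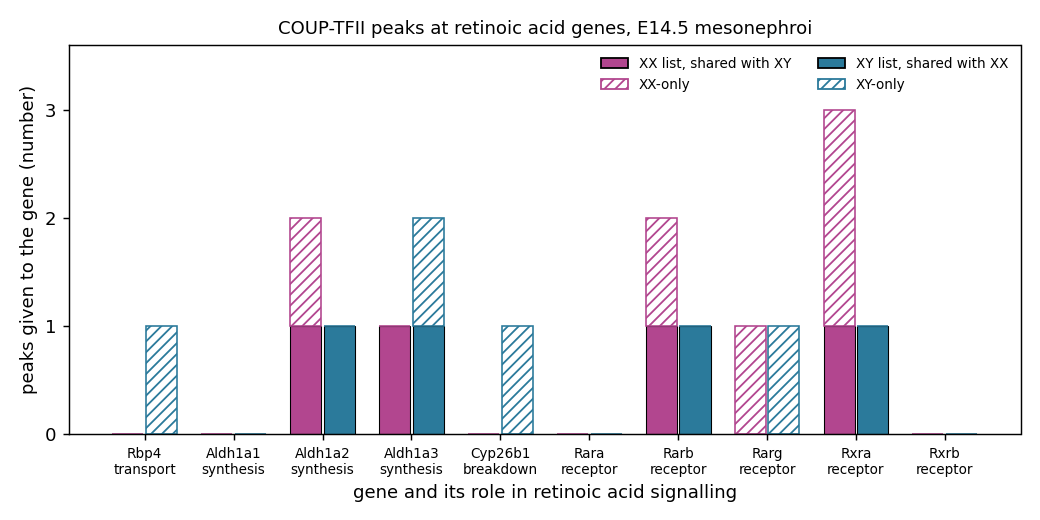
Number of COUP-TFII peaks given to each of the 10 genes (bars, XX left of XY), with shared peaks solid and peaks of 1 list hatched. Rxra has the most XX peaks (3), Aldh1a3 the most XY peaks (2), and Aldh1a1, Rara and Rxrb have none.

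For supply of the substrate, Rbp4, the plasma carrier of retinol (gene 19662, chromosome 19, 38116620 to 38125321), had no XX peak and 1 XY-only peak. It lay inside the gene at 38124376 to 38124675, with its centre 286 bp downstream of the nearer of 2 annotated starts. The closest XX peak to the gene body was 62.2 kb away, beside Cep55, and was shared.

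Among the synthesis genes, Aldh1a2, whose enzyme makes most retinoic acid in the early mouse embryo (gene 19378, chromosome 9, 71215789 to 71296243), had 2 XX peaks and 1 XY peak. The XX peak at 71215814 to 71216113 and the XY peak at 71215756 to 71216055 had 242 bp in common. Their centres lay 174 and 116 bp downstream of the annotated start. The other XX peak, at 71241643 to 71241942, was XX-only and lay 26.0 kb into the gene. A further shared peak 26.5 kb upstream of Aldh1a2 counted for Aqp9, an aquaporin gene, whose body was 21.5 kb from it. The bases before the Aldh1a2 start (chr9:71215539-71215788, plus strand) are shown because the XY peak, but not the XX peak, reached across the start. The 2 centres were 58 bp apart, where the median for shared peaks was 33 bp, and this difference between the lists was not tested. Capitals mark the 33 bases inside the XY peak.
Aldh1a2: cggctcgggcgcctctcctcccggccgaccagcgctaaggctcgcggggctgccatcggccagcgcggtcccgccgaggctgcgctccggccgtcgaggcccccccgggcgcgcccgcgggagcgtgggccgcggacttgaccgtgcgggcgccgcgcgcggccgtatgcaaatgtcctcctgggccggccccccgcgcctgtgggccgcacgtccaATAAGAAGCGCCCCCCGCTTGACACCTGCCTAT

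The Aldh1a2 window held none of the 4 hexamers on either strand, while 43.7% of all windows held at least 1. Nearly all of the stretch common to the XX and XY peaks, from 25 to 266 bases downstream of the start, lies beyond that window and was not read.

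Aldh1a3, a retinaldehyde dehydrogenase gene (gene 56847, chromosome 7, 66390892 to 66427477), had 1 XX peak and 2 XY peaks. The shared peak stood 29.6 kb outside the gene, at 66456956 to 66457255 in the XX list and 66456942 to 66457241 in the XY list, with centres 14 bp apart. The XY-only peak, at 66427265 to 66427564, had its centre 63 bp inside the same end of the gene. In the XX list the closest peak to the gene body lay 2.66 kb beyond its other end, counted for Lrrk1 and was shared. Having at least 2 XY peaks, a cutoff set by its own count, put Aldh1a3 among 6.09% of all genes. Its nearest stretch was 137.5 kb, against a median of 45.0 kb, and held 1.45 XY peaks per 100 kb, against 0.491 for all genes.

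Aldh1a1, another retinaldehyde dehydrogenase gene (gene 11668, chromosome 19, 20492583 to 20643463), stood apart from these. No peak of either list lay within 100 kb of it. The closest were 629 kb (XX) and 628 kb (XY) from the gene body.

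For breakdown, Cyp26b1 (gene 232174, chromosome 6, 84571414 to 84593908) had no XX peak and 1 XY-only peak. That peak lay inside the gene at 84583420 to 84583719, 10.2 kb downstream of the annotated start. The closest XX peak, XX-only, was 47.0 kb upstream and counted for Exoc6b, in whose body it lay.

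**Figure D3:**
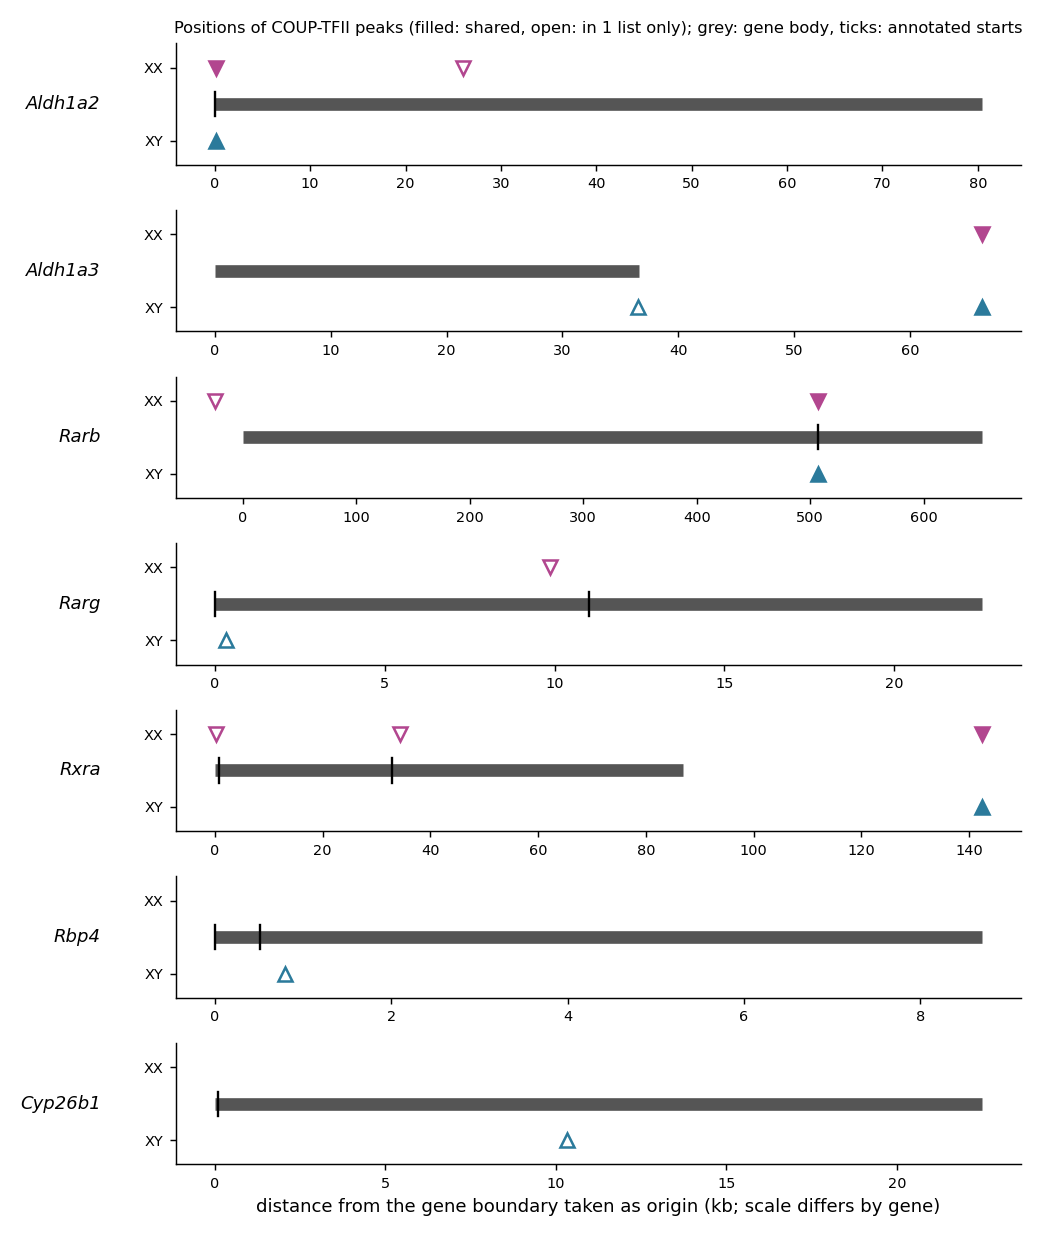
Positions of the peaks of the 7 genes with a peak, in kb from the gene's upstream boundary (from its lower coordinate for Aldh1a3, for which no strand was used), on a scale that differs by gene; XX triangles stand above the gene body (grey) and XY triangles below, filled when shared, and ticks mark annotated starts. Shared peaks stand at a start in Aldh1a2 and Rarb, and outside the gene in Aldh1a3 and Rxra.

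Of the retinoic acid receptor genes, Rarb (gene 218772, chromosome 14, 16430839 to 17082331) is the longest at 651 kb. It had 2 XX peaks and 1 XY peak, or 0.266 and 0.133 per 100 kb, each below the level of all genes. Beside the promoter peak described above, an XX-only peak at 17106842 to 17107141 lay 24.7 kb upstream of the annotated gene body. This peak was also 0.705 kb from Pou5f1-rs6, a transcribed pseudogene.

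Rarg (gene 19411, chromosome 15, 102234938 to 102257522) has 2 annotated starts, and its peaks differed between the lists. The XX-only peak at 102247502 to 102247801 was centred 1.15 kb upstream of the downstream start. The XY-only peak at 102257040 to 102257339 was centred 333 bp downstream of the upstream start. The centres were 9.54 kb apart, so neither list had a peak near the position used in the other. Replicates were not available separately, and this difference was not tested.

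Rara (gene 19401, chromosome 11, 98927800 to 98974942), with 4 annotated starts, had no peak in either list. The closest XX peak was 49.9 kb downstream, at Top2a, and was shared. The closest XY peak, XY-only, was 7.48 kb downstream, inside the connexin gene Gjd3.

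Rxra, the gene of the common RAR partner (gene 20181, chromosome 2, 27676445 to 27763319), had 3 XX peaks and 1 XY peak. At this cutoff, set by its own count, 1.91% of all genes had at least 3 XX peaks. The stretch nearest to Rxra was 218.5 kb, against a median of 45.0 kb, and held 1.37 XX peaks per 100 kb, against 0.547 for all genes. The shared peak lay 55.5 kb downstream of the gene, at 27818695 to 27818994 in the XX list and 27818727 to 27819026 in the XY list. The XX-only peaks were at 27676461 to 27676760, centred 591 bp upstream of the first annotated start, and at 27710596 to 27710895, centred 1.45 kb downstream of the second. The XY list had no peak within the Rxra body.

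Rxrb (gene 20182, chromosome 17, 34031812 to 34038403) lies in the gene-dense major histocompatibility region, where the stretch nearest to it was 7 kb. It had no peak of its own, and a shared peak 3.83 kb (XX) and 3.87 kb (XY) upstream lay in H2-Ke6. Without the nearest-gene rule, 7 XX and 3 XY peaks stood within 100 kb of Rxrb, and likewise 7 XX and 9 XY peaks within 100 kb of Rarg. All of those near Rxrb counted for other genes, as did the 3 XX and 5 XY peaks within 100 kb of Rara. Any link between the count of 0 at Rxrb and its close neighbours was not tested.

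Over the 10 genes, 4 of 9 XX peaks were shared (44.4%, interval 13.7 to 78.8), against 67.0% of the whole XX list. In the XY list 4 of 8 were shared (50%, 15.7 to 84.3), against 76.0%. With so few peaks the intervals are wide, and these shares were not tested against the whole lists. The 13 distinct places were 4 shared, 5 XX-only and 4 XY-only. All 4 XY-only peaks lay inside the gene they were counted for, as did 4 of the 5 XX-only peaks and 2 of the 4 shared peaks. The remaining peaks lay between 24.7 and 55.6 kb outside the gene. Shares inside a gene were computed over all peaks of each list with a gene within 100 kb (68.6% XX, 72.0% XY), and not by class. These counts were therefore not compared between classes. Just beyond the 100 kb limit was 1 XX-only peak nearest to Aldh1a3, at 103.7 kb.

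Of the XX peaks 6 of 9 were inside the gene, against 68.6% of the XX peaks with a gene within 100 kb. For the XY list this was 6 of 8, against 72.0%. Within 1 kb of a protein-coding gene end were 2 of 9 XX peaks, against 56.4%, and 4 of 8 XY peaks, against 63.3%. Within 1 kb of any annotated start were 3 of 9 XX peaks (33.3%, 7.49 to 70.1), against 53.2% of the 10802 XX peaks on chromosomes with starts used here, and 4 of 8 XY peaks (50%, 15.7 to 84.3), against 60.0% of 9533 such XY peaks. Aldh1a3 had no annotated start, so its peaks could not count as near a start of their own gene. Without them, 3 of 8 XX peaks (37.5%, 8.52 to 75.5) lay within 1 kb of a start of their own gene. In the XY list these were 4 of 6 (66.7%, 22.3 to 95.7). The Rarb peak counted near a start but not near a gene end, because its start lies 507 kb inside the annotated gene body.

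**Figure D4:**
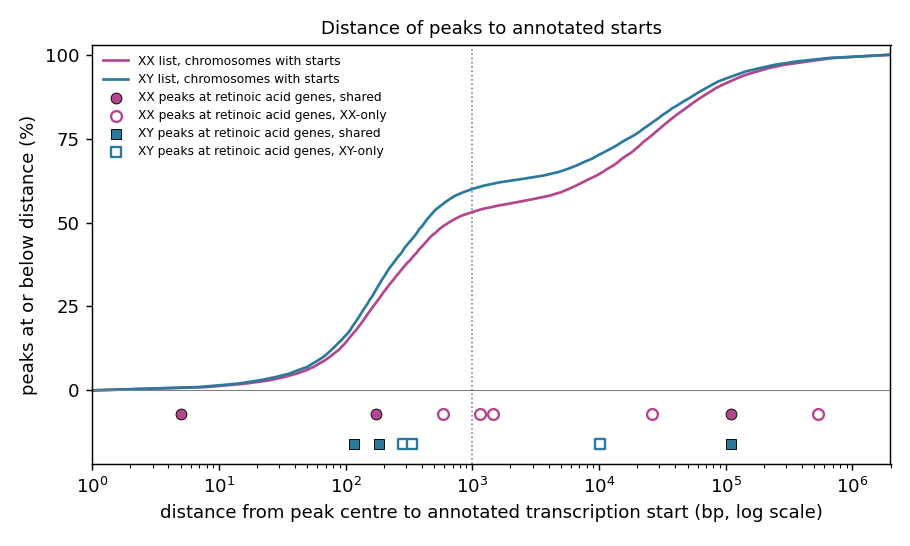
Cumulative share (%) of the 10802 XX and 9533 XY peaks on chromosomes with starts used here, by distance from the peak centre to the nearest annotated start of any gene (bp, log scale), with the peaks of Rbp4, Aldh1a2, Cyp26b1, Rarb, Rarg and Rxra below as points placed by distance to the nearest start of their own gene (filled: shared); Aldh1a3 had no annotated start and is left out. The dotted line is 1 kb, and 3 XX and 4 XY points lie to its left.

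The wider pathway was described with a list of 50 other genes for transport, oxidation, breakdown, reception, cofactors and targets of retinoic acid. Of these, 21 had an XX peak and 20 an XY peak, 18 had a shared peak, and 22 had a peak in either list. Their 38 XX and 32 XY peaks included 24 shared ones, where 67.0% of the whole XX list and 76.0% of the whole XY list were shared. The shares of 42.0% and 40.0% stand beside 36.9% and 35.0% of all genes. The list was put together with earlier results on these peaks known, and it was not tested as a set.

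Of the 10 cofactor genes, 9 had an XX peak and 8 an XY peak (90.0% and 80.0%), against 36.9% and 35.0% of all genes. The stretch nearest to them had a median of 191.8 kb, against 45.0 kb for all genes. Per 100 kb of these stretches, the cofactor genes had 0.715 XX and 0.572 XY peaks, against 0.547 and 0.491 for all genes. The coactivator gene Ep300 had 2 shared peaks, centred 16 and 703 bp from its start in the XX list. Ncoa2 had 2 shared peaks, and Ncoa3, Nrip1, Ncor1 and Crebbp had 1 each. Ncor1, a corepressor gene, also had 1 XY-only peak, and Crebbp, a histone acetyltransferase gene, 1 XX-only peak. Zfp423, a zinc finger gene needed for full response to retinoic acid, had 2 shared peaks and 1 XX-only peak. Ncoa1 had 2 XX-only peaks and no XY peak. These genes often have long bodies, up to 300.2 kb at Zfp423.

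Of 10 transport genes, with 0.501 XX and 0.334 XY peaks per 100 kb, 2 had peaks: Fabp5, a fatty acid binding protein gene, with 1 shared peak 171 bp from the gene, and Rbp7, with 1 shared and 1 XX-only peak. Of 15 genes of retinol, retinal and carotene oxidation or reduction, 4 had an XX peak and 4 an XY peak. Their density was 0.616 peaks per 100 kb in each list. In each list, 20.0% of transport and 26.7% of oxidation genes had a peak, against 36.9% (XX) and 35.0% (XY) of all genes. All genes had 0.547 XX and 0.491 XY peaks per 100 kb. The roles were not tested against each other. Adh5 and Adh7 had 1 shared peak each. Adh4 had 1 XX-only and 1 XY-only peak, Rdh11 had 1 XY-only peak and Bco1 had 1 XX-only peak. The breakdown genes Cyp26a1 and Cyp26c1 and the receptor gene Rxrg had no peak in either list within 100 kb of the gene body.

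Of 12 genes known as retinoic acid targets, 6 had a peak in each list, and their density was 0.900 XX and 0.788 XY peaks per 100 kb. Meis1 had 2 XX and 5 XY peaks, of which 2 were shared, and Meis2 had 4 XX and 2 XY peaks, of which 1 was shared. The stretches nearest to Meis1 and Meis2 were 339.5 and 347.5 kb, against a median of 45.0 kb for all genes. Per 100 kb, Meis1 had 0.589 XX and 1.47 XY peaks, and Meis2 had 1.15 and 0.576. Hoxb1 had 1 shared peak, 28.9 kb downstream. Nr2f1 had 3 XX and 2 XY peaks with 2 shared, and Nr2f2 had 3 XX peaks and 1 XY peak with 1 shared.

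**Figure D5:**
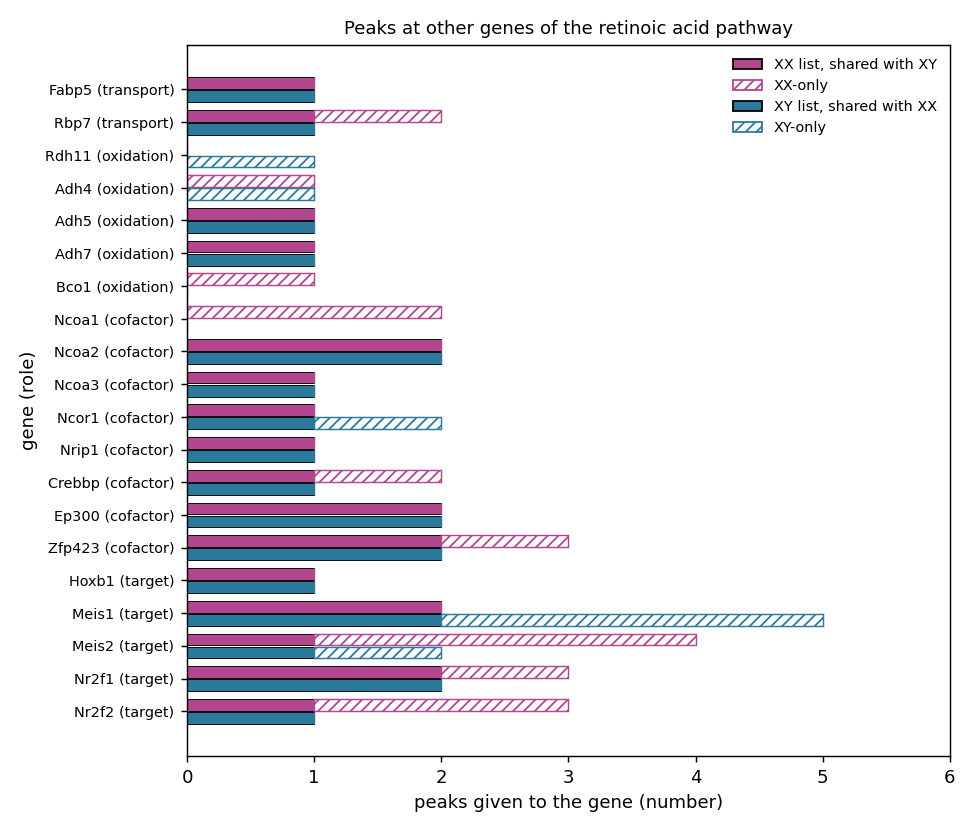
Number of COUP-TFII peaks at 20 genes of the wider pathway with at least 1 peak (bars, XX above XY, shared peaks solid and peaks of 1 list hatched), grouped by role. Meis1 has the most XY peaks (5) and Meis2 the most XX peaks (4), while Rdh11 has an XY bar alone and Bco1 and Ncoa1 have XX bars alone.

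Among promoters of the wider pathway, those of Bco1 and Cyp26a1 held a direct repeat and are shown beside that of Rarb. Bco1 encodes the enzyme that cleaves beta-carotene to retinal, and Cyp26a1 a retinoic acid hydroxylase. Capitals mark TGACCT with spacing 1 in Bco1 and TGAACT with spacing 5 in Cyp26a1, which are AGGTCA and AGTTCA read on the other strand. The bases lie at chr8:117095615-117095864 and chr19:37697558-37697807, both on the plus strand.
Bco1: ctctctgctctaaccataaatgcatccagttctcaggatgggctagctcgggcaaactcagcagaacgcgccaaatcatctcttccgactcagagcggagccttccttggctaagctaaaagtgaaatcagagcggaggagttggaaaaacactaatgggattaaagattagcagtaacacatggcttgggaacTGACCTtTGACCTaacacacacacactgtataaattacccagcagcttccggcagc
Cyp26a1: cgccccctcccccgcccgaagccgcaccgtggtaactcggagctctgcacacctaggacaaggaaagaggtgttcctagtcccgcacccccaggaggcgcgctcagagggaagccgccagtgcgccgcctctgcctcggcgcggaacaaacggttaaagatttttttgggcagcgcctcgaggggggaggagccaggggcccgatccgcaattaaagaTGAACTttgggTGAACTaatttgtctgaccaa

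The Bco1 repeat lay 56 to 44 bases upstream of the start and inside the XX-only peak at 117095611 to 117095910. AGGTCA with spacing 1 was in 13 of 32851 windows (0.0396%), of which 6 overlapped an XX peak (46.2%) and 4 an XY peak (30.8%), against 14.49% and 14.40% of all windows. The Cyp26a1 repeat lay 32 to 16 bases upstream of its start, with no peak of either list there. Promoters of Rarb and Cyp26a1 thus both held a DR5, and of them Rarb had peaks.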

How the data were processed

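The authors deposited 2 lists of peaks, and the labels of both XX or both XY replicates name the same list. Per the file contents, the deposited values are other than counts: a chromosome, a start and an end, here counted from 1. Per the submitters' processing notes, the build was mm10 and the tools included HOMER 4.10.3, Bowtie 1.2, bedtools 2.24.0, cutadapt and Picard, in no stated order. How a peak was called and how replicates were handled is not given in the sources used here. Although the labels' protocol text names another factor and tissue, the titles, tissue, antibody and design give COUP-TFII and mesonephroi, which were used. Input and signal were not analysed here.

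Gene positions (21887 protein-coding genes) and 32851 promoter windows (250 bases before to 50 after a start) came from RefSeq tables for GRCm38.p6. A gene was given to 93.5% of XX and 95.3% of XY peaks. No genome sequence was used, so the planned motif search in peaks was replaced by one in promoter windows. Starts and windows of chromosome 18 were not used, so distances to starts cover 10802 XX and 9533 XY peaks. Nearest genes, overlaps (checked with bedtools 2.31.1) and exact intervals were computed with Python 3.11.15, numpy 2.4.6, pandas 2.3.3 and scipy 1.17.1. The functions were tested on simulated data. Stretches nearest to a gene were measured at positions every 500 bp. No test was run, since 1 list per sex has no replicates, and the intervals are given as descriptions.

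The 10 genes and the list of 50 were chosen with earlier results of these data known. Named genes are the 10, each pathway gene with a peak and neighbours of their peaks, of which 2 pathway genes are counted but not reported here. The pathway genes Cyp26a1, Cyp26c1 and Rxrg, which have no peak, were named after their values were seen.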

Additional observations from a re-analysis of the deposited data

How the results depend on the processing

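Of 77 values recomputed under alternative settings, 64 stayed within 1.5 times the value reported, or, for shares, within its interval. Every recomputed share stayed within its interval. These intervals are so wide (13.7 to 78.8% for XX, 15.7 to 84.3% for XY) that this says little about stability. The largest moves came from counting every peak within 100 kb of a gene body, whatever gene was nearest. This gave 31 XX and 29 XY peaks, 18 of them shared, 13 XX-only and 11 XY-only, with 9 genes having an XX peak and 8 a shared one. Requiring the gene within 10 kb left 2 shared peaks at 2 genes (Aldh1a2 and Rarb), as did letting noncoding genes compete, since lncRNA genes were nearer to the distant peaks of Aldh1a3 and Rxra. Stricter sharing, with 50% of each peak in common or centres within 100 bp, gave 3 shared peaks, without that of Rarb. Leaving out Rarb, also tried after seeing the data, gave 0.690 XY peaks per 100 kb against 0.453 with all 10 genes. The number of promoter windows of the 10 genes with a repeat was 0 with AGGTCA alone and 1 with the 4 hexamers, a setting chosen after seeing the data. A stricter peak threshold and leaving out a replicate could not be run, because the lists have no scores and pool the replicates. The planned search for AGGTCA in peaks, with or without a mismatch, was not run, since no genome sequence was used here. No paired analysis was possible because the replicates of a sex stand together in a single list. Depth behind the lists is unknown.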
